A study of Homo sapiens with 17 samples.

Results

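Keratin genes were examined in HCC1954, an established human breast cancer line that overexpresses HER2. The members were all protein-coding genes of RefSeq on hg38 whose symbol is KRT followed by digits and an optional letter. These were 55 genes of 19970 protein-coding genes used, 27 on chromosome 12 and 28 on chromosome 17. The cells had been transfected with antisense oligonucleotides and fixed 72 hours later, and the arms are called Si1235 and NC1235 in the labels, which do not spell out either name. LINC01235, a long non-coding RNA, is named in the title of the series, and all libraries came from the same cell line. ChIP-seq had 2 libraries per arm for H3K27ac, for the histone variant H2A.Z (H2AZ in the labels) and for H3K36me3, and 1 library per arm for H3K9ac. Whether the replicates came from separate cultures is not stated. A p-value here therefore sets the difference between arms against the spread among libraries of an arm, which may be only technical. That spread is estimated partly from all tested genes of the mark.

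Keratins are the intermediate filament proteins of epithelial cells and hair. A filament is built from pairs of an acidic type I and a basic or neutral type II keratin, and the genes of the types lie in separate clusters, with KRT18 as the type I gene inside the type II cluster. Simple and luminal epithelia use KRT8 with KRT18, KRT7 and KRT19, the basal layer uses KRT5 with KRT14, KRT15 and KRT17, and wounded or hyperproliferative epidermis turns on KRT6 and KRT16. Further members serve differentiated stratified epithelia, the hair shaft, and the root sheath and companion layer of the follicle. H3K27ac and H3K9ac mark active promoters and enhancers, H2A.Z is a histone variant found at most active promoters, and H3K36me3 is laid down over the bodies of transcribed genes.

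The RefSeq promoter table of hg38 held a start for 34 of the 55 keratins. The 100 bases before the start are shown for 8 of them, each 5′ to 3′ on the gene's strand. KRT5, KRT8, KRT4 and KRT75 carried H3K27ac in all 4 libraries. KRT31, KRT33A, KRT71 and KRT76 were unmarked in every library, which here and below means no H3K27ac, H3K9ac or H2AZ peak within 1 kb of the start and no H3K36me3 peak over the body. An unmarked gene may still hold peaks of the other marks further inside it. Capitals mark the letters TATAAA where they begin 22 to 35 bases before the start.
KRT5 (chr12:52520395-52520494, minus strand): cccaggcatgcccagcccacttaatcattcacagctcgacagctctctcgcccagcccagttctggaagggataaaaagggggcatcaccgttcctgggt
KRT8 (chr12:52926470-52926569, minus strand): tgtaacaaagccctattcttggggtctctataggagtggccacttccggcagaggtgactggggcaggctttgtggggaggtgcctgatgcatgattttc
KRT4 (chr12:52814117-52814216, minus strand): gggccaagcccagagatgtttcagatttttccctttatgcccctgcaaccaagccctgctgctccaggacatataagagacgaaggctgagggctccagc
KRT75 (chr12:52434372-52434471, minus strand): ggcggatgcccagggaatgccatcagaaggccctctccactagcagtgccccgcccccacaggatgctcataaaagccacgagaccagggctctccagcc
KRT31 (chr17:41397609-41397708, minus strand): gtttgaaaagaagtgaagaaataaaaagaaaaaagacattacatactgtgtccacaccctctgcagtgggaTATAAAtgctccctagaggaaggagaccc
KRT33A (chr17:41350829-41350928, minus strand): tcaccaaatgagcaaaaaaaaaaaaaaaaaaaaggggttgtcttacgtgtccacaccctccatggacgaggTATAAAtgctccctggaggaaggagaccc
KRT71 (chr12:52553146-52553245, minus strand): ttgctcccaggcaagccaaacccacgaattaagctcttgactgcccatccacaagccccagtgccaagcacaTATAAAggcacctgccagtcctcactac
KRT76 (chr12:52777346-52777445, minus strand): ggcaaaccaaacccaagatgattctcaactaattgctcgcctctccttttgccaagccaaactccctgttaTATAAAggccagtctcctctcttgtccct

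TATAAA, read on the gene's strand, began in that interval in 15 of the 34 keratins, which is 44.1%, against 574 of 15811 protein-coding genes in the table, which is 3.63%. All 4 unmarked promoters shown hold these exact letters, and none of the 4 acetylated ones does. In the same interval KRT5 has GATAAA, KRT4 has TATAAG and KRT75 has CATAAA, each differing by a single letter. Such variants were not counted, so the contrast concerns the exact letters only. The unmarked promoters shown are not typical either, as TATAAA was found in 14 of 28 keratins unmarked in every library. It was found in 0 of the 5 tabulated keratins with H3K27ac in every library. In all, 16 keratins had H3K27ac in every library, and the others of these have no tabulated promoter. KRT24, marked in these windows only by H3K9ac in NC1235, was the remaining match. Read on either strand anywhere in the 250 bases before the start, TATAAA was in 58.8% of the keratins and 9.36% of all genes. The letters TGANTCA, a palindrome, were in 0 of 34 keratins and 5.00% of all genes. GCCNNNGGC, also a palindrome, was in 14.7% and 24.1%. The 34 tabulated keratin promoters, of which 28 were unmarked, were also poor in the dinucleotide CpG. Their median was 2 in these 250 bases, with a range of 0 to 7, against a median of 17 over all genes. The 5 with H3K27ac in every library had a median of 3. The median GC content was 44.6% in the 34 keratins, 54.8% in the 5 and 62.0% in all genes. Neighbouring keratins arose by duplication and share sequence, as the KRT31 and KRT33A lines show, so these shares are descriptions and were not tested.

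For each library, the percent of a window from 1 kb before to 1 kb after the gene start that lay under peaks was taken as the cover of H3K27ac, H3K9ac and H2AZ. For H3K36me3 the window was the whole gene body. A mark at the start means, here and below, a peak anywhere within 1 kb of it. Such a peak need not cross the start itself, and at KRT75 and KRT78 no H3K27ac peak crossed it in any library. H3K27ac peaks reached the start window of 16 of the 55 keratins in all 4 libraries, or 29.1%, against 56.7% of 15857 protein-coding genes. H3K9ac did so in both libraries at 15 keratins (27.3%, against 65.2%), and H2AZ in all 4 libraries at only 4 keratins (7.27%, against 64.1%). H3K36me3 lay over 11 keratin bodies in all 4 libraries, which is 20% of keratins against 49.3% of 18723 bodies of at least 2 kb. Unmarked by this measure in every library were 35 keratins, or 63.6%, against 24.0% of 14942 genes that had both a start and such a body.

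**Figure D1:**
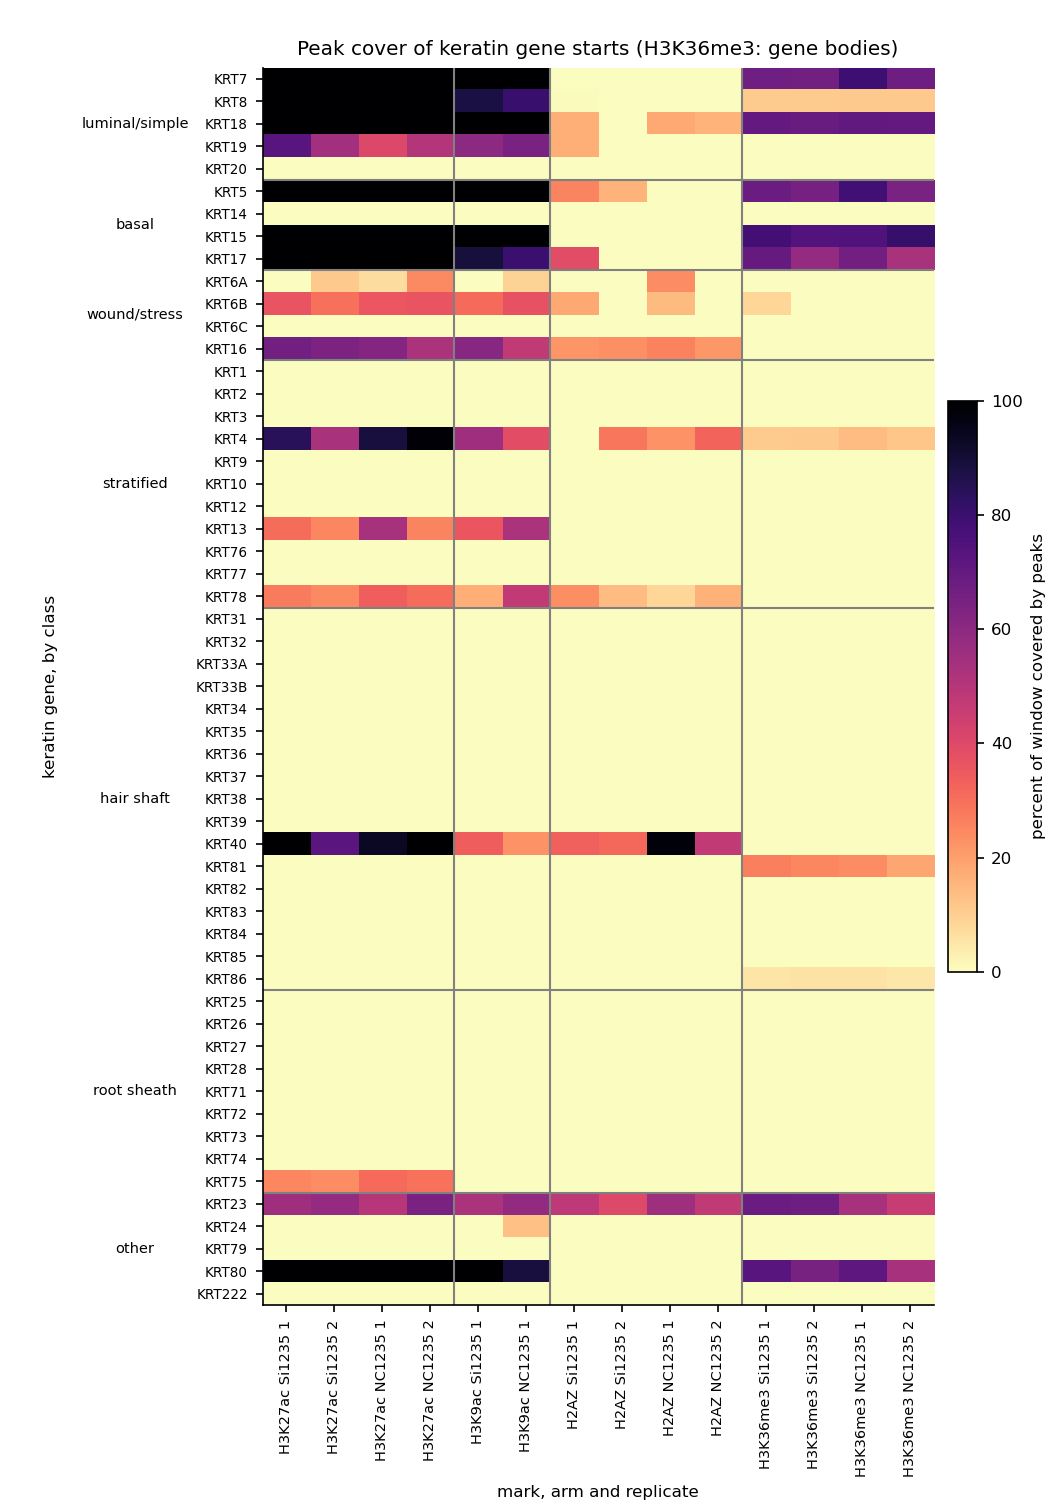
Percent of the window covered by peaks (colour, 0 to 100%) for each of the 55 keratins (rows, grouped by class) in each of the 14 ChIP-seq libraries (columns, by mark, arm and replicate). The dark H3K27ac rows are KRT7, KRT8, KRT18, KRT5, KRT15, KRT17 and KRT80, whose windows were 100% covered in every H3K27ac library, while most hair shaft and root sheath rows are empty.

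The classes differed in how many members were marked. H3K27ac was at the start in every library at 4 of 5 luminal or simple keratins, 3 of 4 basal keratins, 2 of 4 wound keratins, 3 of 11 keratins of differentiated stratified epithelia, 1 of 17 hair shaft keratins, 1 of 9 keratins of the root sheath and companion layer and 2 of 5 others. These counts were the same in each arm taken alone, except in NC1235, where KRT6A brought the wound keratins to 3. Genes unmarked in every library were 14 of 17 in the hair shaft class, 8 of 9 in the root sheath class and 8 of 11 in the stratified class. In the luminal, basal and wound classes the unmarked gene was 1 each: KRT20, the intestinal keratin, KRT14, the usual partner of KRT5, and KRT6C.

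**Figure D2:**
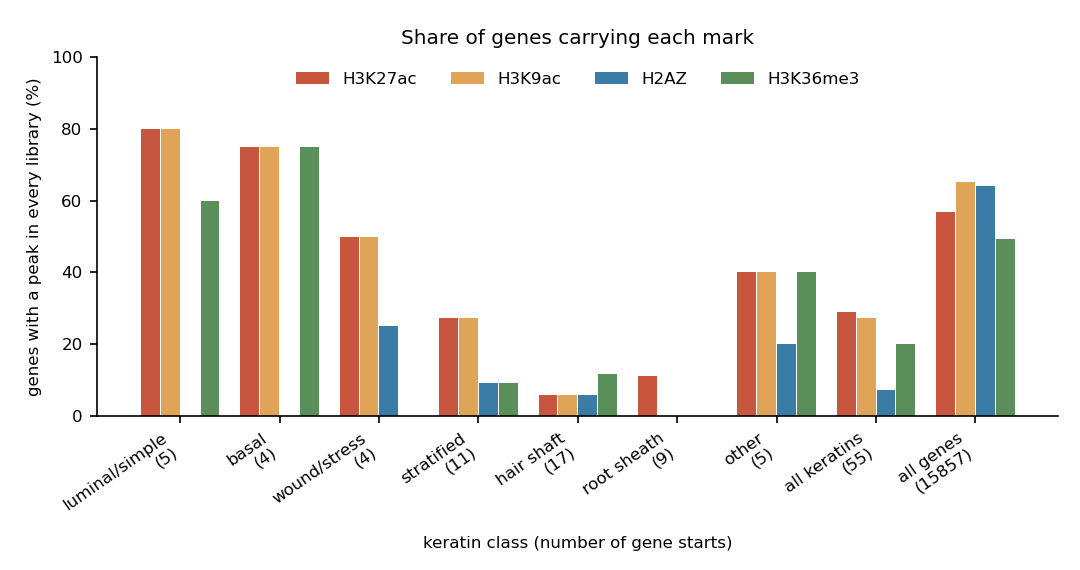
Share of genes (vertical axis, %) with a peak of each mark in every library, by keratin class (horizontal axis, number of genes in brackets), beside all keratins and all protein-coding genes. H3K36me3 of all genes is over 18723 bodies. Shares of H3K27ac were 80% in the luminal class, 75% in the basal class and 5.88% in the hair shaft class.

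Among luminal keratins, KRT7, KRT8 and KRT18 had their start window covered by H3K27ac to 100% in each of the 4 libraries. H3K9ac covered 100% at KRT7 and KRT18 in both arms, and 87.7% in Si1235 and 80.3% in NC1235 at KRT8. H3K36me3 over KRT7 covered 66.9 and 66.4% in the Si1235 libraries and 79.3 and 67.4% in the NC1235 libraries. Over KRT18 it covered 70.2 and 68.7% in Si1235 and 70.5 and 70.0% in NC1235. The annotated KRT8 body, 52670 bp, runs into KRT18 and may be much longer than the body of its main transcript. H3K36me3 lay only over the 3′ end of this span (chromosome 12: 52896169–52903014). It covered 10.7 and 10.7% of the span in Si1235 and 11.1 and 11.0% in NC1235. KRT8 had 3 wide H3K27ac domains, towards the 3′ end of the span (52901294–52910187), at the start used here (52923716–52928521) and at the end it shares with KRT18 (52943694–52952609). A shorter KRT8 transcript starting in the first of these domains would have its start outside the window. The start values of KRT8 may therefore not be those of its main promoter. KRT19, a short keratin without the usual tail domain, had 73.0 and 54.4% H3K27ac cover in Si1235 and 40.5 and 50.6% in NC1235. No H3K36me3 peak lay over KRT19 in any library, although the acetyl domains around it were among the widest of the clusters.

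Basal keratins were marked as fully as the luminal ones, apart from KRT14. KRT5, KRT15 and KRT17 had 100% H3K27ac cover of the start in all 4 libraries. H3K36me3 covered 68.0 and 65.3% of KRT5 in Si1235 and 78.3 and 64.4% in NC1235. KRT15 had 78.0 and 73.9% in Si1235 and 74.7 and 80.9% in NC1235, and KRT17 had 69.5 and 58.1% in Si1235 and 66.1 and 53.1% in NC1235. A single H3K27ac domain of 16168 bp (chromosome 17: 41509830–41525997) joined KRT15 to the 3′ end of KRT19. It was wider than all but 0.0703 and 0.0405% of the H3K27ac peaks in the Si1235 libraries and all but 0.0513 and 0.0413% in the NC1235 libraries. KRT14 had no H3K27ac, H3K9ac or H2AZ at its start and no H3K36me3 over its body in any library.

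Wound keratins were partly acetylated and had little H3K36me3. KRT16 had 66.6 and 64.1% H3K27ac cover in Si1235 and 61.8 and 52.6% in NC1235, and H2AZ there was 22.0 and 23.2% in Si1235 and 25.8 and 21.6% in NC1235. KRT6B had 36.6 and 30.1% H3K27ac cover in Si1235 and 35.7 and 36.6% in NC1235. Its only H3K36me3 cover was 8.22% in Si1235 replicate 1. KRT6A had 0 and 11.2% H3K27ac cover in Si1235 and 6.95 and 24.4% in NC1235, from the edge of an upstream domain (chromosome 12: 52494118–52497208) that was present in all 4 libraries, and from small peaks nearer the gene. KRT6A, KRT6B and KRT6C are near-identical, as are KRT33A and KRT33B, and KRT81, KRT83 and KRT86. KRT14, KRT16 and KRT17 are similar to a lesser degree. How alike these genes are was not measured here. The sources do not give how reads matching several copies were placed, so values of single copies are uncertain.

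Of the stratified class, KRT4, a keratin of mucosal epithelia, was acetylated over 84.1 and 53.1% of its start in Si1235 and 88.5 and 98.7% in NC1235. H3K36me3 covered 10.8 and 11.1% of KRT4 in Si1235 and 13.7 and 11.7% in NC1235. KRT13, the mucosal partner of KRT4, had 30.9 and 25.1% H3K27ac cover in Si1235 and 53.7 and 25.6% in NC1235, with no H3K36me3. KRT78 had 27.7 and 24.4% in Si1235 and 33.8 and 30.9% in NC1235, also with no H3K36me3. The epidermal pair KRT1 and KRT10, and KRT2, KRT3, KRT9, KRT12, KRT76 and KRT77, had no mark at their starts. KRT10 had a peak of H3K27ac (chromosome 17: 40817831–40819850) and of H2AZ (40818332–40819817) at its 3′ end in all 4 libraries, and both peaks also overlap the antisense RNA gene KRT10-AS1.

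In the hair shaft class, KRT40, a keratin of the hair cuticle, alone was acetylated at its start, with 100.0 and 72.6% H3K27ac cover in Si1235 and 93.1 and 100.0% in NC1235. No H3K36me3 peak lay over KRT40. KRT81 and KRT86, the neighbouring type II hair keratins, had no acetylation at their annotated starts but carried H3K36me3 in all 4 libraries. Cover of KRT81 was 26.6 and 25.2% in Si1235 and 23.9 and 18.7% in NC1235, from a peak at its 3′ end (chromosome 12: 52285275–52287407) that also lies inside KRT86. This same peak gave all of the KRT86 cover, 5.28 and 5.58% in Si1235 and 5.74 and 4.84% in NC1235. The counts of keratins with H3K36me3 thus include it under both genes. The annotated KRT86 span is 34519 bp, its start was taken from the outer end, and it may be much longer than the main transcript. The start and body values of KRT86 may therefore not be those of its main transcript. An H3K27ac domain of 9779 bp (52277718–52287496) reached from inside KRT86 into the 3′ end of KRT81. Its fold enrichment over local background, the authors' own value, was 132.4 and 124.0 in Si1235 and 115.2 and 113.6 in NC1235, exceeded by 0.176 and 0.104% of the peaks of the Si1235 lists and by 0.185 and 0.122% of those of the NC1235 lists. A 5′-truncated KRT81 transcript that starts inside the gene is known from breast cancer cells, but the peak lists do not show transcripts. KRT33A and KRT39 likewise had H3K27ac over part of the gene in all 4 libraries (chromosome 17: 41347255–41349595 and 40951497–40961231) and none at the start.

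KRT75, a companion layer keratin, was the marked gene of the root sheath class. H3K27ac covered 25.4 and 23.9% of its start window in Si1235 and 31.1 and 29.5% in NC1235, with no H3K9ac, H2AZ or H3K36me3. This cover was the edge of an upstream domain of 11042 bp (chromosome 12: 52434749–52445790) that began beyond the start in all 4 libraries. KRT75 is the one acetylated gene among those printed above with its H3K27ac wholly upstream of the start.

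KRT80 and KRT23 of the remaining genes were marked at start and body. KRT80, a keratin of many epithelia, had 100% H3K27ac cover in all 4 libraries, and H3K36me3 over 72.7 and 64.8% of its body in Si1235 and 71.3 and 53.3% in NC1235. KRT23 was the only keratin with all 4 marks in every library, with H3K27ac at 55.3 and 58.1% in Si1235 and 49.9 and 64.5% in NC1235. KRT24 had 0% H3K9ac cover in Si1235 and 13% in NC1235, and no other mark at its start or H3K36me3 over its body. KRT79 and KRT222 were unmarked at the start and had no H3K36me3 over the body. In all, H3K27ac at the start and H3K36me3 over the body occurred together in every library at 9 keratins, or 16.4%. The share was 46.7% of the 14942 genes with both a start and a body of at least 2 kb. H3K27ac in every library with H3K36me3 in none was found at 6 keratins, or 10.9%, against 7.08% of those genes.

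H2AZ was thin or missing where the keratins were most acetylated. At the 7 keratins with full H3K27ac cover, the median H2AZ cover was 0.350% in Si1235 and 0% in NC1235, against 82.7% and 79.7% over all 1161 genes with full H3K27ac cover. The windows were not placed alike. Starts of KRT7, KRT15, KRT17, KRT18 and KRT80 were outer gene ends, while 1154 of the 1161 genes had a tabulated start. H2AZ outside the window is not counted, as in the region upstream of KRT5 (chromosome 12: 52521684–52522502). KRT7, KRT15 and KRT80 had 0% H2AZ in all 4 libraries, as did 23 of the 1161 genes, or 1.98%. At the start used here KRT8 had 0.700 and 0% in Si1235 and 0 and 0.200% in NC1235, and its nearest H2AZ peak (chromosome 12: 52924797–52925482) lay just inside the gene. Another H2AZ region (52907963–52908888) lay under the KRT8 H3K27ac domain towards the 3′ end. It had 926 and 0 bp in Si1235 and 0 and 317 bp in NC1235. KRT18 had 16.5 and 0% in Si1235 and 18.1 and 15.9% in NC1235. H2AZ reached its highest keratin values at KRT40 and KRT23. KRT40 had 33.3 and 31.6% in Si1235 and 98.2 and 47.3% in NC1235, and KRT23 had 48.1 and 39.9% in Si1235 and 55.6 and 47.4% in NC1235.

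**Figure D3:**
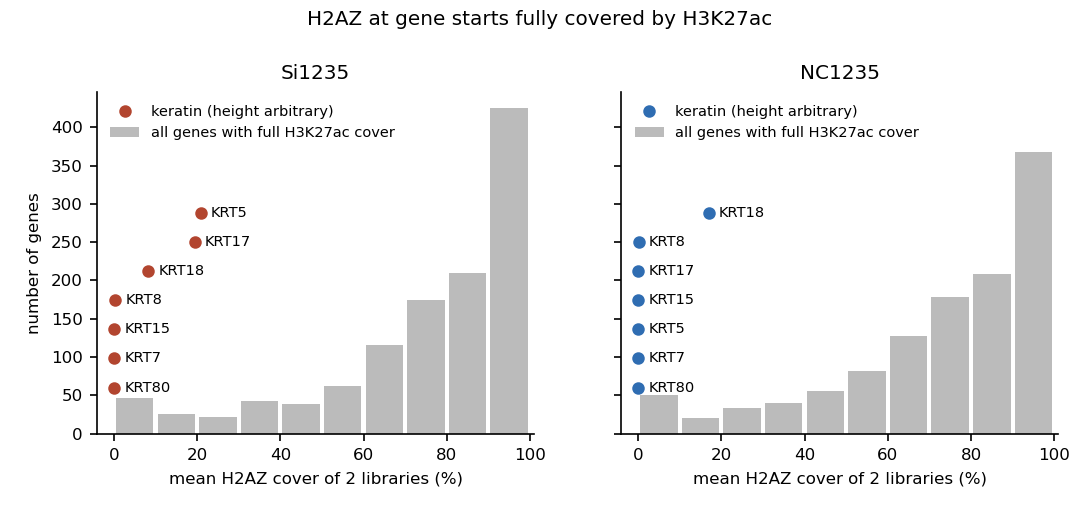
Number of genes (bars, vertical axis) by mean H2AZ cover of the 2 libraries of an arm (horizontal axis, %), for the 1161 genes whose start was fully covered by H3K27ac, with Si1235 on the left and NC1235 on the right. Points show the 7 keratins among them at their own H2AZ cover, with arbitrary height, all at the low end of the axis while most genes lie above 60%.

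Low CpG content went with low H2AZ among all genes with full H3K27ac cover. In the 250 bases before the start, the 42 such genes with a tabulated promoter and a mean H2AZ cover under 10% had a median of 4 CpG, against 23 in the 1112 with more H2AZ. KRT5 and KRT8, the tabulated promoters among the 7 keratins, had 6 and 1 CpG, the KRT8 value being for the start used here. KRT7, KRT15, KRT17, KRT18 and KRT80 had no tabulated promoter, so the CpG content of most of the 7 is not known here. The part of CpG content in the H2AZ values was not tested.

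Acetylation also filled parts of the clusters away from keratin starts. Between the outermost keratins, H3K27ac peaks of the 4 libraries merged into 57 regions on chromosome 12 and 48 on chromosome 17, of which 30 and 28 were in all 4 libraries. Of these shared regions, 14 and 16 touched no protein-coding gene, for example 40848229–40856163 and 40908546–40918754 on chromosome 17, which overlap the non-coding gene LOC105371777 between KRT10 and KRT23. H3K27ac covered 15.3 and 14.0% of the chromosome 12 cluster in Si1235 and 14.6 and 14.7% in NC1235. On chromosome 17 it covered 11.2 and 10.5% in Si1235 and 10.2 and 10.1% in NC1235. Some H3K27ac regions were found in a single arm: 1 on chromosome 12 and 4 on chromosome 17 were in both Si1235 libraries alone, and 4 and 2 in both NC1235 libraries alone, the widest being 1165 bp in Si1235 (chromosome 17: 41499733–41500897, beside KRT13) and 1064 bp in NC1235 (chromosome 12: 52338153–52339216). Together these were 11 regions, or 10.5% of those in the clusters, against 9.70% of 52015 regions merged in the same way over all chromosomes.

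The comparison of Si1235 with NC1235 sets the transfected arms against each other. No keratin passed limma's adjusted p threshold of 0.05 for any mark, with 10 keratins tested for H2AZ, 17 for H3K27ac and 11 for H3K36me3. Over all tested genes the percent past it was 0 for H2AZ, 0.419 for H3K27ac (39 of 9305 genes, with 19 or 0.204% higher and 20 or 0.215% lower in Si1235) and 0 for H3K36me3. At an unadjusted limma p under 0.05 there were 587 genes (5.56%) for H2AZ, 1263 (13.6%) for H3K27ac and 663 (7.94%) for H3K36me3, among them 1 keratin per mark. Arms did not overlap at 2 of 10 keratins for H2AZ, against 31% of all tested genes, at 5 of 17 for H3K27ac, against 39.9%, and at 5 of 11 for H3K36me3, against 34%. Arms could not stand apart where H3K27ac was full in every library, as at 7 of the 17 keratins and 1161 of the 9305 genes. The H3K27ac shares are therefore not on an equal footing. For H2AZ 1 of the keratins without overlap was higher in Si1235 and 1 lower, against 21.2 and 9.79% of all genes. For H3K27ac 2 were higher and 3 lower, against 22.6 and 17.3%, and for H3K36me3 2 were higher and 3 lower, against 20.3 and 13.7%. The keratins' median difference, Si1235 minus NC1235, was −4.33 points in H2AZ cover, beside 1.33 over all tested genes. In H3K36me3 cover they were −0.328 and 0.694. In H3K27ac cover both were 0, where 7 of the 17 keratins had a full window in every library. Of the 10 others, 2 were higher and 8 lower in Si1235, with a median of −5.99 points, while of 8144 tested genes without a full window 54.0% were higher and 45.8% lower, with a median of 0.475 points.

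**Figure D4:**
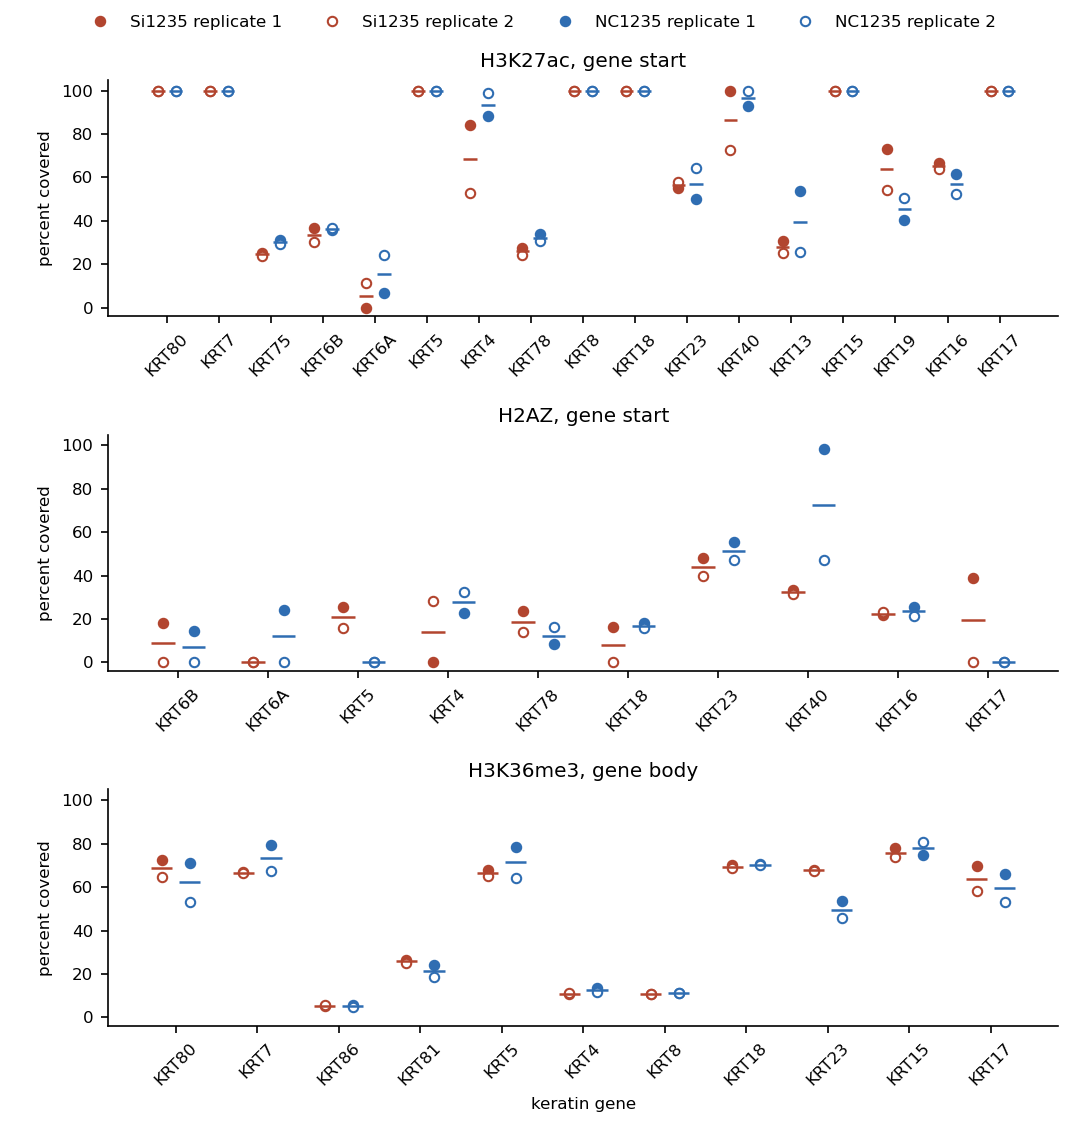
Percent of the gene start (H3K27ac, H2AZ) or gene body (H3K36me3) covered by peaks at each tested keratin (horizontal axis), with Si1235 in red left of NC1235 in blue. Filled points are replicate 1, open points replicate 2 and bars the mean of 2 libraries. Among others, the arms stand apart at KRT5 and KRT40 for H2AZ, at KRT75 for H3K27ac and at KRT23 for H3K36me3. KRT5 and KRT23 were higher in Si1235 and KRT40 and KRT75 lower, and no keratin was past the adjusted threshold.

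KRT5 was the keratin with an unadjusted p under 0.05 for H2AZ. Its start had 25.8 and 16.0% H2AZ cover in the Si1235 libraries and 0 and 0% in the NC1235 libraries. The difference was 20.9 points (SE 5.88), with a limma adjusted p of 0.872. The peak of Si1235 replicate 1 (chromosome 12: 52519941–52520455) crossed the start into the KRT5 sequence printed above, and that of Si1235 replicate 2 (52520002–52520320) ended inside the gene. A second H2AZ region just upstream (52521684–52522502), outside the window, went the other way, with 0 and 0 bp in Si1235 and 743 and 568 bp in NC1235, and with a window of 2.5 kb either side the KRT5 difference was −3.52 points.

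For H3K36me3 the keratin concerned was KRT23. Its body had 68.1 and 67.3% cover in Si1235 and 53.5 and 45.8% in NC1235, without overlap of the arms. The difference was 18.1 points (SE 5.54), with a limma adjusted p of 0.445. KRT75 was the one for H3K27ac, with the values given above, a difference of −5.68 points (SE 1.49) and a limma adjusted p of 0.321. Its domain had a fold enrichment of 24.2 and 24.7 in Si1235 and of 51.3 and 56.1 in NC1235. The NC1235 H3K27ac lists are also the ones whose pileups were not whole reads, with 0.730 and 12.7% whole against 100% in both Si1235 lists, so for H3K27ac the arm and the way the lists were made cannot be told apart.

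Other differences were larger but more variable. H2AZ at KRT40 averaged 32.5 ± 1.2% in Si1235 and 72.7 ± 36.03% in NC1235 (SD, n = 2 each), a difference of −40.3 points (SE 19.7) with a limma adjusted p of 0.917. Without NC1235 replicate 1 it was −14.8 points, and without NC1235 replicate 2 it was −65.8 points. H2AZ was found at KRT17 in 1 library alone, with 38.9 and 0% in Si1235 and 0 and 0% in NC1235, so the Si1235 mean rests on Si1235 replicate 1. H3K27ac at KRT4 averaged 68.6 ± 21.9% in Si1235 and 93.6 ± 7.25% in NC1235 (SD, n = 2 each), with a limma adjusted p of 0.623. Its difference of −25.0 points was −40.5 points without Si1235 replicate 1 and −9.53 points without Si1235 replicate 2. KRT19 averaged 63.7 ± 13.2% in Si1235 and 45.6 ± 7.14% in NC1235 (SD, n = 2 each), with a limma adjusted p of 0.580, and the difference was 8.80 points without Si1235 replicate 1 and 27.5 points without Si1235 replicate 2. At KRT16 H3K27ac was 8.13 points higher in Si1235 and at KRT78 it was 6.30 points lower, both without overlap of the arms and with adjusted limma p of 0.597 and 0.422. At KRT6A, KRT6B, KRT13, KRT23 and KRT40 the H3K27ac arms overlapped. At the 7 fully covered starts the window left no room for a rise.

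H3K9ac had 1 library per arm and no test. Its cover at KRT78 was 17.1% in Si1235 and 47.0% in NC1235, and KRT78 was the only keratin that was lower by at least 20 points, as were 3.52% of 10626 genes with H3K9ac. None was higher by that much, against 2.12%. At KRT4 it was 55.2% in Si1235 and 38.6% in NC1235, at KRT13 36.2% in Si1235 and 52.5% in NC1235, and at KRT16 61.2% in Si1235 and 47.5% in NC1235. KRT5, KRT7, KRT15 and KRT18 were at 100% in both libraries.

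The genes that work with keratins were read in the same way. Of 13 desmosomal and plakin genes that link filaments to junctions, 10 had H3K27ac at the start in every library and 0 passed the limma test in any mark. EVPL, a cornified-envelope plakin, had 56.9 and 33.8% H2AZ cover in Si1235 and 33.9 and 31.3% in NC1235, and PLEC, the linker plectin, 80.3 and 76.4% in Si1235 and 74.1 and 62.0% in NC1235. PPL, periplakin, had 78.3 and 83.6% H3K27ac cover in Si1235 and 70.6 and 67.4% in NC1235, with a limma adjusted p of 0.334. EVPL had 94.9 and 75.6% H3K27ac cover in Si1235 and 76.9 and 74.8% in NC1235. For H3K36me3 the largest differences of the linkers were −6.00 points at DSC2, a desmosomal cadherin, and −5.95 points at DST, a plakin.

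Of 14 other intermediate filament genes, 5 were acetylated in every library and 0 passed. Their largest differences were 6.25 points at LMNB2 and 3.08 points at LMNA for H2AZ, −4.58 at LMNA and 3.08 at GFAP for H3K27ac, and −8.82 at LMNB1 and 5.53 at LMNB2 for H3K36me3, where LMNA, LMNB1 and LMNB2 encode nuclear lamins and GFAP the filament of astrocytes. Of 16 epithelial and hair regulators, 10 were acetylated in every library and 0 passed. KLF4, a transcription factor of epidermal differentiation, had 55.7 and 52.1% H3K27ac cover in Si1235 and 36.6 and 38.1% in NC1235, a difference of 16.5 points (SE 1.84) with a limma adjusted p of 0.134. Its H3K36me3 cover was 61.2 and 47.6% in Si1235 and 0 and 23.3% in NC1235, with a limma adjusted p of 0.234. TP63, the regulator of basal epithelium, had 35.2 and 18.2% H3K27ac cover in Si1235 and 36.9 and 36.8% in NC1235. GRHL2 and GRHL3, of the grainyhead family, differed by 13.2 and 11.8 points for H2AZ, and HOXC13, a regulator of hair keratins, by 4.99 points for H3K36me3. GRHL3 had 27.3 and 25.5% H2AZ cover in Si1235 and 29.2 and 0% in NC1235, so its difference rests on NC1235 replicate 2.

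Of 34 keratin-associated protein genes on chromosome 17, which encode the matrix of the hair shaft and lie inside the type I cluster, 33 had a start and none had H3K27ac or H2AZ in every library. KRTAP4-8 was the only one with enough cover to be tested, for H2AZ, at 18.2 and 0% in Si1235 and 15.4 and 0% in NC1235. HOXC13 itself was acetylated in every library, at 71.4 to 86.1%, while FOXN1, the other hair regulator of the marker list, was unmarked.

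Read depth is not stated in the lists, which hold from 42759 (H2AZ) to 81320 (H3K36me3) peaks in the ChIP-seq libraries. All 5 epithelial and HER2 markers (EPCAM, CDH1, ERBB2, GRB7 and CLDN4) had H3K27ac in every library. Of 4 mesenchymal and 3 endothelial markers 1 each did, namely COL1A1 and CDH5, while COL3A1, PDGFRB and VWF were unmarked in every library. COL1A2 had H2AZ of up to 7.10%, and PECAM1 had H3K36me3 over its body in every library, at 13.5 to 21.6%. Among immune markers CD14 had H3K27ac in every library, and PTPRC and CD3E were unmarked. With 2 libraries per arm an exact permutation test of one gene cannot go below p = 0.333. In simulated data, a change of 40 points was found by limma in 35.5% of changed genes for H2AZ, 66.5% for H3K27ac and 71.0% for H3K36me3, so changes of that size at single keratins could be missed.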

How the data were processed

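ChIP-seq libraries of HCC1954 cells were analysed from 14 peak lists of 4 marks, plus 1 ChIRP list, 1 list per library; the 2 input samples were not analysed here. The submitters' processing notes name hg38 as the build, Bowtie2 2.2.9 and MACS2, and further HTSeq 2.0.3 and DESeq2 1.22.2 with no role given. The deposited fold enrichment is the authors' linear ratio over local background, and the lists give −log10 of p and q as deposited by the authors, with a lowest −log10 q of 2.00029. Peak names of the H3K9ac lists carry another residue's name, and the labels were followed.

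Peak intervals were merged per library and the percent of each window covered was computed. A deposited pileup was called whole within 0.002 reads, on 1500 weak peaks per library. Gene ends were those of RefSeq on GRCh38.p14. Starts came from the RefSeq promoter table for 34 keratins and 15811 genes, the most upstream one where several were listed; for 21 keratins without an entry the outer gene end on the textbook strand was used. Starts of shorter transcripts can lie outside the window.

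Limma 3.58.1 (R 4.3.3) was fitted to genes whose cover averaged 5% or more, with an intensity trend and no replicate term, in percentage points, Si1235 minus NC1235, with Benjamini-Hochberg adjustment over all tested genes of a mark and a threshold of 0.05. The fit was tested on simulated data with 200 changed genes. Every keratin is accounted for; those with a mark at the start or past the test are given by library, and of the other lists the 2 members with the largest difference per mark are named. Members, classes and lists were chosen with earlier results of these data known. Alternatives were other windows, filters, peak thresholds, quantile normalization, a replicate block and leaving out each library; a 10 kb window was added after seeing the data. An item of the marker lists is not reported here.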

Additional observations from a re-analysis of the deposited data

Results flagged for a closer look

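ChIRP, a method that recovers DNA near a chosen RNA with antisense probes, was measured in 1 NC1235 library that enters no comparison above, and the captured RNA is not named in the labels. A ChIRP peak lay in the start window of 12 of the 55 keratins, or 21.8%, against 2003 of 15857 genes, or 12.6%. It is given here as a signal in a library outside the comparisons, with no counterpart in Si1235. Of the 16 keratins with H3K27ac in every library 2 had such a peak (KRT80 and KRT78), and of the 39 others 10 had one. Among all genes the shares were 12.4% with H3K27ac and 12.9% without. KRT14, which had none of the 4 marks in these windows, had 31.9% ChIRP cover, and KRT38, a hair keratin, had 30.2%, with a fold enrichment of 63.6. No control list for ChIRP was used here, and the difference from all genes was not tested.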

How the results depend on the processing

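The number of keratins past the limma threshold was 0 for H2AZ, H3K27ac and H3K36me3 under every alternative run, and the lowest adjusted p of a keratin that was also tested in the reported fit was 0.0564 (H3K27ac at KRT23, 10 kb window). With the replicate block it was also 0 for each mark; same-numbered libraries deviated together with correlations of 0.202, 0.065 and 0.296, the numbers are not stated to mark a shared batch, and the block left 0 higher and 0 lower genes for H3K27ac in place of 19 and 20. That count over all genes also went to 2 and 5 with a 500 bp window, 2 and 3 with 2.5 kb, 59 and 58 with 10 kb, 14 and 12 with quantile normalization, and 2 to 184 higher and 1 to 156 lower on leaving out a library, each of the 4 moving it. For H3K36me3, quantile normalization gave 65 higher and 28 lower genes, and leaving out a library 14 to 179 and 5 to 24. Keratins with H2AZ in every library numbered 7 with a 2.5 kb window, against 4, and keratins past 20 points for H3K9ac 5 with 500 bp and 3 with −log10 q of at least 5, against 1.

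Some differences that passed no test turned sign. For H2AZ these were KRT5 (−3.52, 2.5 kb) and KRT18 (0.325, equal number of top peaks). For H3K27ac they were KRT78 (2.2 with 2.5 kb, 0.550 with 10 kb), KRT23 (5.64 and 4.73), KRT6A (0.848, 10 kb) and KRT13 (5.18, 10 kb). For H3K36me3 they were KRT86 (−0.686, quantile normalization) and KRT15 (5.64, without the first 1 kb). Leaving out a library turned the H2AZ difference at KRT6B (−5.23 to 11.1), KRT4 (−27.7 to 0.600) and KRT16 (−3.25 to 0.950). It turned that of H3K27ac at KRT6B (−6.08 to 0.425), KRT23 (−7.80 to 6.85), KRT40 (−23.9 to 3.48) and KRT13 (−25.7 to 2.43), and that of H3K36me3 at KRT80 (−2.49 to 15.5), KRT86 (−0.307 to 0.588), KRT5 (−11.7 to 2.25), KRT15 (−4.99 to 1.24) and KRT17 (−2.36 to 10.7). The causes were not tested. Peak lists hold only regions past a threshold, so a weak signal reads as 0.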
